A study of Mus musculus with 8 samples.

Results

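Expression of 10 transcription factor genes of the mammary epithelium was followed across 8 mouse RNA-seq libraries: Sox9, Sox10, Tfap2a, Tfap2b, Tfap2c, Elf3, Elf5, Gata3, Foxa1 and Ehf. They were taken by symbol from a raw read-count table of 23478 gene rows, in which all 10 members were present. The libraries fall into 4 groups of 2 biological replicates each. In the first group, disseminated cancer cells (DCC), taken from bone marrow in a mouse model of breast cancer that metastasises spontaneously, had been cultured and treated with interferon-gamma (DCC IFN-gamma). In the DCC control group the same kind of cells was cultured without it. TUBO is a mouse breast cancer cell line, known to come from a mammary carcinoma of a neuT mouse. The early lesion group holds isolated cancer cells of an early mammary tumour, and its titles name neuT, an activated rat Erbb2 oncogene. All 8 libraries carry the genotype label WT, including those titled neuT. The sources used here give no strain, age or transgene promoter, and no dose or duration of interferon-gamma. Replicates are called biological, without saying whether they came from separate mice or cultures, so p-values measure only the spread between these samples.

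These factors act in families. The SoxE factors Sox9 and Sox10 are HMG-box proteins, Sox9 of progenitor cells and cartilage, Sox10 of the neural crest and of mammary progenitor cells. The AP-2 factors Tfap2a, Tfap2b and Tfap2c bind GC-rich sites. Tfap2c is known in human breast cancer cells as a regulator of luminal genes, ERBB2 among them. Elf3, Elf5 and Ehf form the epithelium-specific branch of the ETS family, and Elf5 drives the alveolar differentiation of luminal progenitors. Gata3 maintains the luminal fate, and Foxa1 opens chromatin for the oestrogen receptor in hormone-sensing luminal cells.

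Promoter windows from RefSeq (GRCm38.p6, the same coordinates as mm10) were matched by symbol for 6 of the 10 genes: Tfap2a, Tfap2b, Elf3, Elf5, Gata3 and Foxa1. Each window runs from 250 bases before to 50 bases after a start site and is 300 bases long. Those of 4 genes are shown because their genes part the groups below: Gata3 and Elf5, which were high in TUBO and the early lesion, Tfap2b, which was high only in the early lesion libraries, and Foxa1, which was low in all 8. Capitals mark matches on either strand to the letters of an AP-2, ETS, GATA, SOX or forkhead motif, which are spelled out with the results after the sequences. All are written 5′ to 3′.
Gata3 promoter window, chr2:9878551-9878850, minus strand: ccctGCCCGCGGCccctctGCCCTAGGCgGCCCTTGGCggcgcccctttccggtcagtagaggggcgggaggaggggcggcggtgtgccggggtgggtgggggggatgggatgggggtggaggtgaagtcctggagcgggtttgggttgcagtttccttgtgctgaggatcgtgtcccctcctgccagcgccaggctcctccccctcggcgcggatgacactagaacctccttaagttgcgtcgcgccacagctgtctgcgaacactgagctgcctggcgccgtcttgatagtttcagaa
Elf5 promoter window, chr2:103411848-103412147, plus strand: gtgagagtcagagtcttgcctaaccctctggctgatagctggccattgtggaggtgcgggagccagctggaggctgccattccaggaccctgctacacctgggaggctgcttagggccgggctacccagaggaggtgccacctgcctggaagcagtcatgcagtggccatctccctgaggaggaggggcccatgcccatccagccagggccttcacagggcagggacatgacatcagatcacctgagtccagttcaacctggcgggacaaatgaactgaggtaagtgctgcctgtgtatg
Tfap2b promoter window, chr1:19211804-19212103, plus strand: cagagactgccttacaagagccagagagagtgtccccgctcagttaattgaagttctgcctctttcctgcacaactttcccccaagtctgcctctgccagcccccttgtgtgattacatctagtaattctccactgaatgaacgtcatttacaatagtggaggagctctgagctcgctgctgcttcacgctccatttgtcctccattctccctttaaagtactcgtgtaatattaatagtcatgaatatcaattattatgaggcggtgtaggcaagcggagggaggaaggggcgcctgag
Foxa1 promoter window, chr12:57546062-57546361, minus strand: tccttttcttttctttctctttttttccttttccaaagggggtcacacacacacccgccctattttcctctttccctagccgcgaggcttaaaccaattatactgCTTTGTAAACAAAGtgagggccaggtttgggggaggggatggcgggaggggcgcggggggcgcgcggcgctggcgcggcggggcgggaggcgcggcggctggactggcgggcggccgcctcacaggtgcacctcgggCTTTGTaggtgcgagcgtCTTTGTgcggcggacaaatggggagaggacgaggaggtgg
The Gata3 window held 3 AP-2 matches, beginning at bases 5, 20 and 30 from its 5′ end. The AP-2 letters searched were GCCNNNGGC. Such a match was present in 16.6% of 32851 promoter windows of the same length. In the Foxa1 window there were 4 SOX matches, at bases 106, 114, 243 and 261, and 1 forkhead match at base 110, which overlaps the first 2 SOX matches. The SOX letters ACAAAG were found in 18.7% of all windows. The forkhead letters, TGTTTAC, were found in 3.65%. The Elf5 and Tfap2b windows held no match, and neither did those of Tfap2a and Elf3. Of all windows, 8.86% held the ETS letters CCGGAAG. The GATA letters searched, AGATAA, occurred in 11.2%. The Elf5 window was low in CpG, with 3 of these dinucleotides, against 22 in Gata3, 26 in Foxa1 and a median of 7 over all windows. Elf5 has a further start site in the table, whose window (chr2:103423818-103424117) held 10. A match describes letters only and shows neither binding nor its absence.

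Expression is given as CPM, the read count scaled to a common library size, with TMM normalization, and levels of different genes are compared as CPM per kb of merged GENCODE M21 exons. Reads on genes totalled 15432210 to 30168475 per library, and 3 counts, used as the floor of detection, equal 0.0953 to 0.183 CPM. Such floors cover counting error only. The first DCC control replicate and the second early lesion replicate differed from the other 6 libraries. Reads outside genes made up 57.5% and 50.8% of their gene and no-feature reads, against 22.8% to 36.1% elsewhere. Of 1450 olfactory and vomeronasal receptor genes, known mainly from sensory neurons, 47.7% and 63.7% had a count in these 2 libraries. DCC control replicate 2 had a count for 11.9% of them and the other 5 libraries for 0.966% to 2%. The labelled cancer cells were checked with 20 luminal epithelial markers. Of these, 18 averaged under 1 CPM in DCC IFN-gamma and 18 in DCC control, against 2 in TUBO and 0 in the early lesion. Epcam, a defining epithelial surface protein, had no count in either DCC IFN-gamma library or in DCC control replicate 1, and 0.158 CPM in DCC control replicate 2. Krt8, a luminal keratin, was at most 0.317 CPM in the 4 DCC libraries. Most of these luminal markers were thus at or near 0 in the DCC libraries, but not all. Lcn2 had 7.59 and 74.4 CPM in DCC IFN-gamma and 24.6 and 18.5 CPM in DCC control. In TUBO it had 8130 and 8670 CPM, and in the early lesion 13200 and 11700 CPM. The other markers averaging over 1 CPM were Spint1 in DCC IFN-gamma (1.91 and 0.751 CPM) and Prlr in DCC control (3.77 and 0.158 CPM). Of 15 basal and myoepithelial markers, the basal keratins Krt5 and Krt14 were at most 0.791 CPM in every DCC library. They were low in the other groups too, at most 0.207 CPM in every TUBO and early lesion library. Dsg3 was also at most 0.791 CPM in every DCC library, but had 21 to 24.5 CPM in TUBO and the early lesion. Some other genes of that list were present in the DCC libraries. Mylk, a contractile kinase that smooth muscle and stromal cells also make, had 9.42 and 37 CPM in DCC IFN-gamma and 104 and 105 CPM in DCC control, against 0.31 and 0 CPM in TUBO and 5.94 and 7.67 CPM in the early lesion. The list summed to 83.2 to 125 CPM in DCC IFN-gamma and 228 to 253 CPM in DCC control, against 23.5 to 30.4 CPM in TUBO and 44.9 to 53.7 CPM in the early lesion. Summed over 13 fibroblast and stromal markers, the level was 780 to 1270 CPM in DCC IFN-gamma and 7650 to 8820 CPM in DCC control, against 16.5 to 22.6 CPM in TUBO and 29.7 to 35 CPM in the early lesion. In these bulk libraries fewer cells of a type and less RNA per cell cannot be told apart.

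All 10 members passed the filter on low counts, some of them only through the groups in which they were high. Most of the set was abundant in TUBO and the early lesion and close to the floor in the DCC libraries. Summed over the 10 genes, the level was 318 and 638 CPM in DCC IFN-gamma, 259 and 242 CPM in DCC control, 2816 and 2830 CPM in TUBO, and 2608 and 2374 CPM in the early lesion. Sox9 was the most abundant member per kb in every DCC library, and Sox10 in every TUBO and early lesion library. Under 1 CPM were 7 members in each DCC IFN-gamma library and 3 and 5 members in the DCC control libraries, against 1 member in each TUBO and early lesion library.

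**Figure D1:**
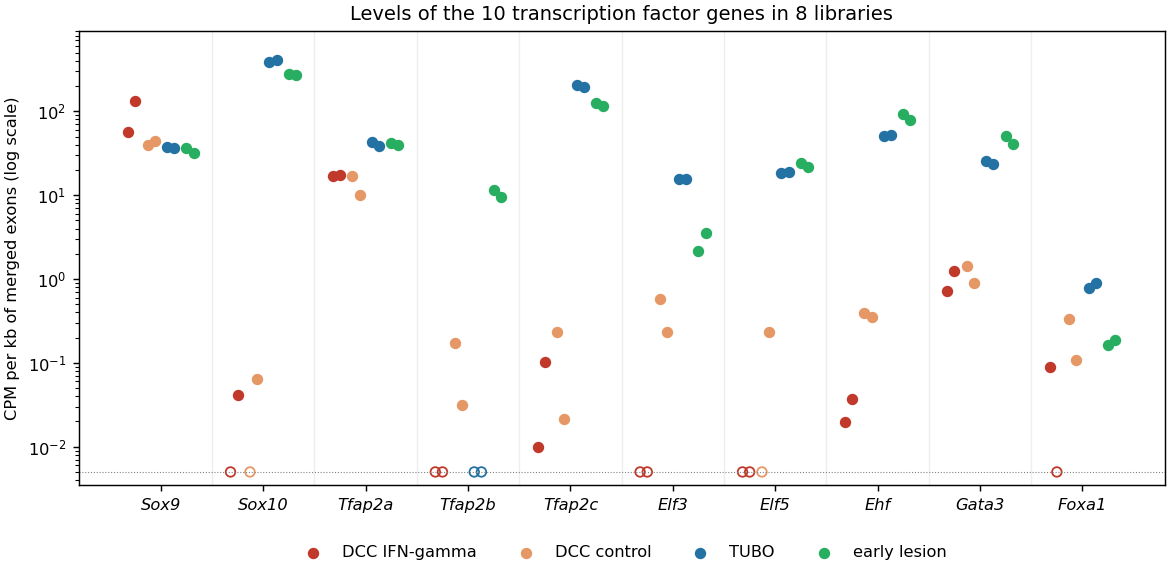
Levels of the 10 genes in each of the 8 libraries, as CPM per kb of merged exons on a log axis, with filled points for single libraries and open points on the dotted line for libraries without a count. Sox9 and Tfap2a lie above 10 CPM per kb in all 8 libraries, while Sox10, Tfap2c, Elf5 and Ehf are high only in the TUBO and early lesion libraries.

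Between DCC control and the early lesion, 8 of the 10 members were lower in DCC control and 0 higher at an adjusted p under 0.05 in edgeR's quasi-likelihood test. Over all 17069 genes tested 37.7% were called in either direction, with 19.1% higher and 18.7% lower. The median log2 fold change was -6.07 over the members and 0.23 over all genes tested. Against TUBO, 7 members were lower and 1 higher in DCC control, where 42% of all genes were called (19.9% lower, 22.1% higher). Here the medians were -4.86 and 0.37. DCC IFN-gamma against the early lesion gave 8 lower and 1 higher members, with 41.9% of all genes called (19.2% lower, 22.7% higher). With members without a count in a group set to their bound, the median over the members was -7.44. Over all genes it was -0.18, with no bounds set. For DCC IFN-gamma against TUBO there were 7 lower and 1 higher members, with 44% of all genes called (19.6% lower, 24.4% higher). These comparisons share libraries and are not independent of each other. Luminal markers moved with the members: in DCC control 20 of 20 were lower than in the early lesion and 18 of 20 lower than in TUBO. Of 13 basal and myoepithelial markers tested, 5 were higher and 1 lower in DCC control than in the early lesion. The other 7 were not called. Whether the members' differences stem from the mix of cells was not tested. With DCC control replicate 1 and early lesion replicate 2 left out, 8 members were still called in DCC control against the early lesion and 8 against TUBO.

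**Figure D2:**
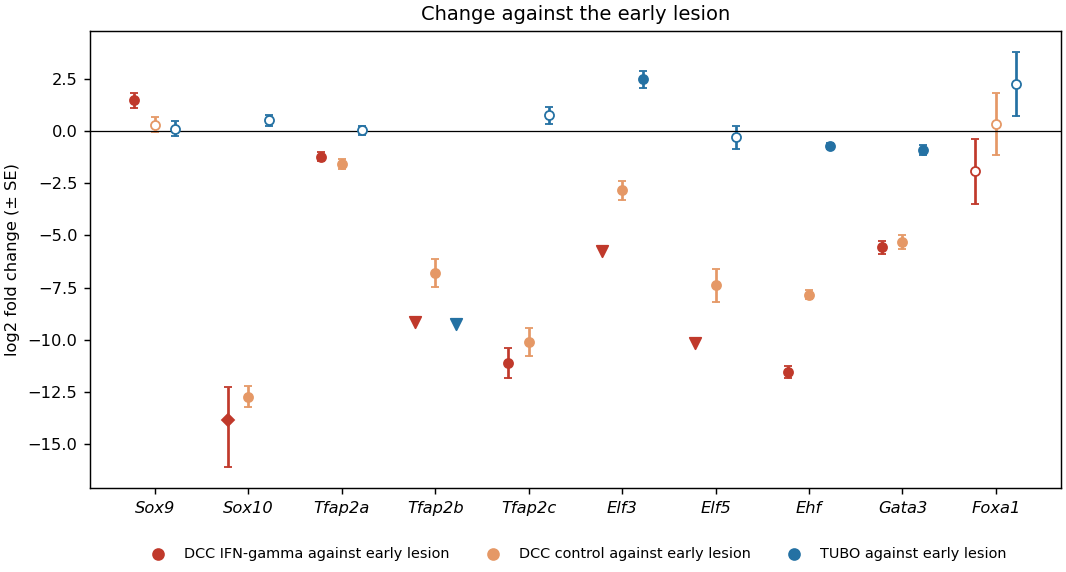
Log2 fold change (± SE) of each gene against the early lesion, for DCC IFN-gamma, DCC control and TUBO, with filled circles for genes called in edgeR and open circles for others. Triangles are bounds for genes without a count in the group named first, and the diamond is a ratio of counts with its 95% counting interval. Points of the DCC groups lie at -2.85 or lower for 7 genes, and the TUBO points between -0.92 and 2.46 for every gene but Tfap2b.

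The SoxE pair divided the groups. Sox10 (chromosome 15, 79154908 to 79165240, minus strand, mm10) had 0 and 3 counts in DCC IFN-gamma and 0 and 5 counts in DCC control. In TUBO it reached 1164 and 1234 CPM, and in the early lesion 857 and 824 CPM. No DCC library came near a library of the other groups. Its log2 fold change in DCC control was -12.73 ± 0.50 against the early lesion (edgeR, adjusted p = 9.31e-08) and -13.24 ± 0.51 against TUBO (adjusted p = 6.36e-08). With 1 library left out the fitted value against the early lesion ranged from -17.37 to -12.02, the lowest without DCC control replicate 2, which held all 5 counts. The early lesion exceeded DCC IFN-gamma by a count ratio of 14400 (95% counting interval 4930 to 69800). TUBO exceeded it by 20500 (7000 to 99200). TUBO and the early lesion did not overlap for Sox10, but the difference was not called (log2 fold change 0.51 ± 0.27, adjusted p = 0.197). It was called in a fit of those 2 groups alone (adjusted p = 0.00865) and in DESeq2 (0.00187).

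Sox9 (chromosome 11, 112782224 to 112787760, plus strand) was present everywhere. It had 231 and 548 CPM in DCC IFN-gamma, 164 and 184 CPM in DCC control, 154 and 149 CPM in TUBO, and 151 and 133 CPM in the early lesion. The interferon-treated libraries were the highest, and they also lay furthest apart (390 ± 224 CPM, SD, n = 2). Against DCC control the change of 1.16 ± 0.35 was not called (edgeR, adjusted p = 0.0565). DESeq2 called it (adjusted p = 0.00271), and so did edgeR without DCC IFN-gamma replicate 1 (1.66, adjusted p = 1.33e-06), whereas without DCC IFN-gamma replicate 2 the value was 0.45. Sox9 was called higher in DCC IFN-gamma than in the early lesion (1.46 ± 0.36, adjusted p = 0.0131) and than in TUBO (1.36 ± 0.35, adjusted p = 0.0169). Both calls were lost with a library of the second group left out: without early lesion replicate 1 or 2 the adjusted p was 0.0523 or 0.0661, and without TUBO replicate 1 or 2 it was 0.0701 or 0.106. Without DCC IFN-gamma replicate 2 the 2 log2 fold changes were 0.67 and 0.63. DCC control differed from the early lesion by 0.30 ± 0.35 and from TUBO by 0.20 ± 0.35, neither of which was called. Per kb, Sox9 made up 99.9% to 100% of the SoxE level in the DCC libraries, 8.88% and 8.2% in TUBO and 11.5% and 10.6% in the early lesion. Sox9 also marks cartilage and bone precursors. The summed level of 16 osteoblast and cartilage markers was 188 to 353 CPM in DCC IFN-gamma and 2910 to 3180 CPM in DCC control, against 216 to 234 CPM in TUBO and 139 to 148 CPM in the early lesion. Alpl, the phosphatase of mineralising cells, had 43.5 and 79.5 CPM in DCC IFN-gamma and 1380 and 1480 CPM in DCC control. The part of such cells in the Sox9 level was not tested. Sox10 is likewise known from Schwann cells and melanocytes. The summed level of 12 markers of those cells was 33.2 to 69.4 CPM in DCC IFN-gamma and 63.4 to 67.3 CPM in DCC control, against 44 to 58.4 CPM in TUBO and 42.6 to 49.7 CPM in the early lesion. Its members went different ways: S100b had 11.4 to 41.4 CPM over the 4 DCC libraries, against 0 to 0.535 CPM in the TUBO and early lesion libraries, while Mbp, a myelin gene, had 1.78 to 2.86 CPM against 28.2 to 39.6 CPM.

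AP-2 genes showed 3 different patterns. Tfap2a (chromosome 13, 40715302 to 40738376, minus strand) was the member shared by all groups, with 83.3 and 84.8 CPM in DCC IFN-gamma, 82.6 and 49.7 CPM in DCC control, 213 and 189 CPM in TUBO, and 204 and 192 CPM in the early lesion. All 4 DCC libraries lay below all others. It was lower in DCC control than in the early lesion by a log2 fold change of -1.59 ± 0.22 (edgeR, adjusted p = 0.000216) and than in TUBO by -1.61 ± 0.22 (adjusted p = 0.000185). In DCC IFN-gamma the values were -1.24 ± 0.21 against the early lesion (adjusted p = 0.0009) and -1.26 ± 0.21 against TUBO (adjusted p = 0.000805). TUBO and the early lesion differed by 0.02 ± 0.21. Antisense genes of the annotation overlap exons of Tfap2a, as they do for Elf3 and Gata3. With the strand setting of the counting unknown, reads of both strands cannot be told apart.

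Tfap2c (chromosome 2, 172549593 to 172558622, plus strand) had 1 and 9 counts in DCC IFN-gamma and 14 and 2 counts in DCC control. It stood at 753 and 723 CPM in TUBO and at 458 and 423 CPM in the early lesion. Its log2 fold change in DCC control was -10.10 ± 0.69 against the early lesion (edgeR, adjusted p = 4.51e-05) and -10.84 ± 0.71 against TUBO (adjusted p = 3.17e-05). With 1 library left out the first of these ranged from -12.36 to -9.01. In DCC IFN-gamma the change was -11.10 ± 0.73 against the early lesion (adjusted p = 3.16e-05). TUBO exceeded the early lesion in both libraries by 0.74 ± 0.42, short of the threshold (adjusted p = 0.248). A fit of those 2 groups alone called it (0.000871).

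Tfap2b (chromosome 1, 19208914 to 19238576, plus strand) was high in the early lesion libraries alone. It had no count in either DCC IFN-gamma library, 18 and 5 counts in DCC control, none in either TUBO library, and 2285 and 1344 counts (72.6 and 59.95 CPM) in the early lesion. Against the early lesion it was at least 611-fold lower in TUBO (edgeR, adjusted p = 0.00079) and at least 564-fold lower in DCC IFN-gamma (adjusted p = 0.000294), with a floor of 3 counts per library. DCC control was lower than the early lesion by a log2 fold change of -6.81 ± 0.67 (adjusted p = 0.00073), and -8.35 to -5.92 with 1 library left out. This gene was the member called higher in DCC control than in TUBO, by at least 5.96-fold (adjusted p = 0.0284). That call was lost without TUBO replicate 1 (adjusted p = 0.102) and without TUBO replicate 2 (0.0985). Its levels per kb in the DCC control libraries exceeded those of 84.8% and 91.1% of 1430 receptor genes of the olfactory and vomeronasal set with a known length. Per kb, Tfap2a supplied 97.7% to 99.9% of the AP-2 level in the DCC libraries. Tfap2c supplied 82.5% and 83.6% in TUBO and 70.1% and 70.3% in the early lesion, where Tfap2b supplied 6.45% and 5.78%.

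**Figure D3:**
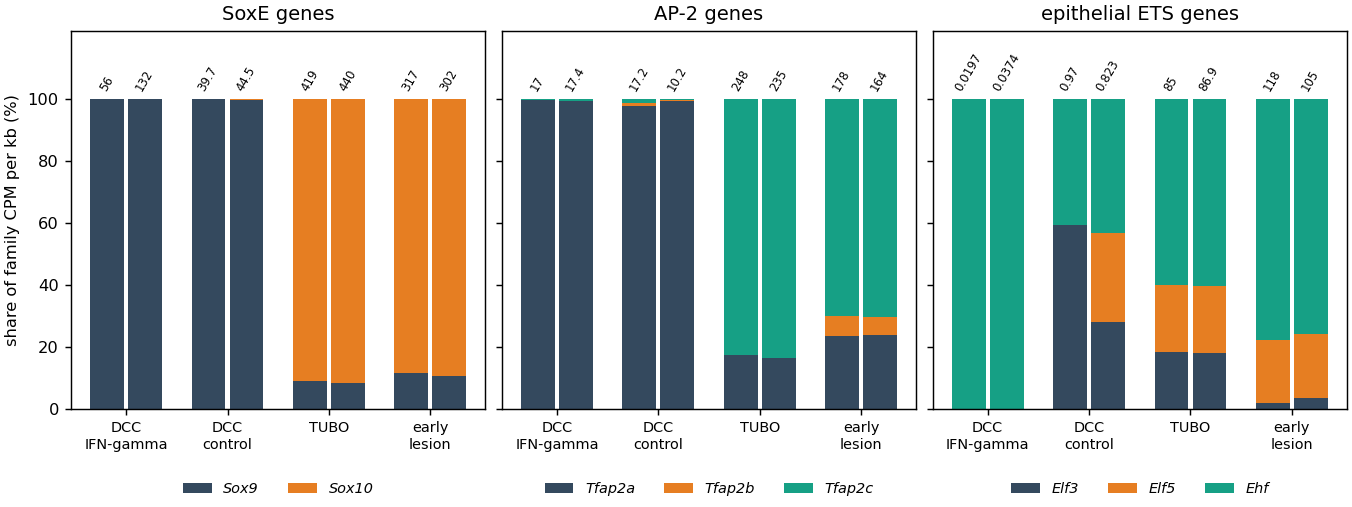
Share of each gene in the summed CPM per kb of its family, for the SoxE, AP-2 and epithelial ETS genes in each of the 8 libraries (2 bars per group), with the family's summed CPM per kb above each bar. Sox9 and Tfap2a fill the bars of the DCC libraries, while Sox10 and Tfap2c take most of those of TUBO and the early lesion. For the ETS genes the DCC bars rest on under 1 CPM per kb.

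The epithelial ETS genes were nearly silent in the DCC libraries. Ehf (chromosome 2, 103263433 to 103303278, minus strand) had 3 and 5 counts in DCC IFN-gamma and 36 and 50 counts in DCC control. It reached 284 and 293 CPM in TUBO and 513 and 443 CPM in the early lesion. DCC control was lower than the early lesion by a log2 fold change of -7.84 ± 0.22 (edgeR, adjusted p = 1.01e-08) and than TUBO by -7.12 ± 0.21 (adjusted p = 1.42e-08). In DCC IFN-gamma the change was -11.53 ± 0.27 against the early lesion (adjusted p = 4.65e-09), and -12.06 to -11.13 with 1 library left out. TUBO was also lower than the early lesion, by -0.73 ± 0.15 (adjusted p = 0.0067). That call was lost without early lesion replicate 1 (adjusted p = 0.0625).

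Elf5 (chromosome 2, 103411688 to 103450989, plus strand), whose promoter window is printed above, had no count in either DCC IFN-gamma library or in DCC control replicate 1, and 35 counts in DCC control replicate 2. In TUBO it stood at 109 and 111 CPM and in the early lesion at 143 and 127 CPM. The interferon-treated libraries were at least 1150-fold lower than the early lesion (edgeR, adjusted p = 0.000564) and at least 934-fold lower than TUBO (adjusted p = 0.000615). For DCC control the log2 fold change was -7.39 ± 0.80 against the early lesion (adjusted p = 0.00114) and -7.10 ± 0.80 against TUBO (adjusted p = 0.00124). The first of these was -14.73 without DCC control replicate 2, which held all the counts. TUBO and the early lesion differed by -0.30 ± 0.55, which was not called.

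Elf5 and Ehf are neighbours, 108410 bases apart with no protein-coding gene between them in the annotation. The gene on the other side of Elf5 is Cat, which encodes catalase and lies 2860 bases away. Cat had 73.1 and 81.9 CPM in DCC IFN-gamma, 76.6 and 83.8 CPM in DCC control, 177 and 154 CPM in TUBO, and 325 and 268 CPM in the early lesion. It was thus present in all groups, and called lower in both DCC groups than in TUBO and the early lesion. Apip, a methionine salvage enzyme on the far side of Ehf, had 5.02 and 6.17 CPM in DCC IFN-gamma, 14.4 and 12.1 CPM in DCC control, 11.7 and 17.5 CPM in TUBO, and 15.3 and 13.9 CPM in the early lesion. It was called lower in DCC IFN-gamma than in each other group. Polr2f, a polymerase subunit gene 3134 bases from Sox10, lay between 62.1 and 86 CPM in all 8 libraries and was not called in any of the 6 comparisons. On the other side of Sox10, Pick1, a scaffold gene 63933 bases away, had 11 and 7.63 CPM in DCC IFN-gamma and 10.8 and 8.59 CPM in DCC control, against 47.4 and 54.4 CPM in TUBO and 62.9 and 59.5 CPM in the early lesion. Rnpep, an aminopeptidase gene 4144 bases from Elf3, had 28.8 and 27.1 CPM in DCC IFN-gamma and 11.9 and 13.2 CPM in DCC control, against 86.2 and 88.8 CPM in TUBO and 58.6 and 57.6 CPM in the early lesion. Of 17 neighbours that are not members, Tfap2d was not tested. In all 4 comparisons of a DCC group with TUBO or the early lesion, 4 were called lower (Pick1, Rnpep, Cat and Celf2). Celf2 is the neighbour of Gata3, but lies 2347515 bases from it. The only neighbour called higher in all 4 comparisons was Gcnt2, 121378 bases from Tfap2a. Over all genes tested, 18.7% to 19.9% were called lower in each single comparison and 19.1% to 24.4% higher. The share of all genes called the same way in all 4 was not computed, so these counts of neighbours are description only.

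Elf3 (chromosome 1, 135253575 to 135258568, minus strand) was the only member called higher in TUBO than in the early lesion. It had no count in DCC IFN-gamma and 21 and 13 counts (1.28 and 0.515 CPM) in DCC control. TUBO had 34.3 and 34.4 CPM and the early lesion 4.80 and 7.76 CPM. TUBO exceeded the early lesion by a log2 fold change of 2.46 ± 0.42 (edgeR, adjusted p = 0.00258), and by 2.15 to 2.84 with 1 library left out. In DCC IFN-gamma it was at least 293-fold lower than in TUBO (adjusted p = 3.3e-06) and at least 53.4-fold lower than in the early lesion (adjusted p = 2.02e-05). DCC control was lower than TUBO by -5.31 ± 0.50 (adjusted p = 2.68e-05) and than the early lesion by -2.85 ± 0.47 (adjusted p = 0.00106). Within the ETS branch, Ehf supplied 60% and 60.5% of the level per kb in TUBO and 77.7% and 76.0% in the early lesion, and Elf3 18.2% and 17.9% in TUBO against 1.83% and 3.35% in the early lesion.

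Gata3 (chromosome 2, 9857078 to 9890034, minus strand) was the only low member with at least 77 counts in every DCC library. It had 2.82 and 4.92 CPM in DCC IFN-gamma, 5.72 and 3.60 CPM in DCC control, 101.1 and 93.6 CPM in TUBO, and 204 and 164 CPM in the early lesion. The 4 groups formed 3 levels, since the DCC groups overlapped. DCC control was lower than the early lesion by a log2 fold change of -5.32 ± 0.32 (edgeR, adjusted p = 1.29e-06) and than TUBO by -4.40 ± 0.31 (adjusted p = 3.26e-06). In DCC IFN-gamma the changes were -5.58 ± 0.32 against the early lesion (adjusted p = 8.87e-07) and -4.66 ± 0.31 against TUBO (adjusted p = 2.26e-06). TUBO was lower than the early lesion by -0.92 ± 0.26 (adjusted p = 0.0282). This last call was lost without early lesion replicate 1 (adjusted p = 0.137), TUBO replicate 1 (0.0746) or TUBO replicate 2 (0.183).

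Foxa1 (chromosome 12, 57540628 to 57546916, minus strand) was low in all libraries. It had 8 and 0 counts in DCC IFN-gamma, 18 and 9 counts in DCC control, 75 and 78 counts in TUBO, and 17 and 14 counts in the early lesion. Only TUBO exceeded 2 CPM, at 2.59 and 2.98 CPM, and no comparison called the gene. The early lesion levels per kb exceeded those of 99.7% and 95.2% of the receptor genes. The difference of DCC IFN-gamma from TUBO was -4.18 ± 1.67 (edgeR, adjusted p = 0.0671), and DESeq2 called it (0.00589).

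In TUBO against the early lesion, 1 member was higher and 3 were lower, where 24.1% of all genes were called (11.4% higher, 12.7% lower). The called members are Elf3 on the higher side and Tfap2b, Ehf and Gata3 on the lower. The median log2 fold change was 0.06 over the members and -0.27 over all genes. Without early lesion replicate 1, 2 members were called, and likewise with DCC control replicate 1 and early lesion replicate 2 left out together. Per kb the order of the members in the early lesion was Sox10 (275), Tfap2c (120), Ehf (85.7), Gata3 (46.3), Tfap2a (40.4), Sox9 (34.3), Elf5 (22.9), Tfap2b (10.5), Elf3 (2.83) and Foxa1 (0.175 CPM per kb). Of these neighbours only Gata3 and Tfap2a overlapped between libraries. In TUBO the order began with the same 3 genes (393, 201 and 51.8 CPM per kb) and no neighbours overlapped. In DCC control it began with Sox9 (42.1), Tfap2a (13.5) and Gata3 (1.17 CPM per kb), with every other member at 0.404 CPM per kb or less on average.

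Few of these genes were called after interferon-gamma. Of the 10 members 2 were lower in DCC IFN-gamma than in DCC control and 0 higher, where 21.4% of all genes were called (12.6% higher, 8.83% lower). The 2 of 10 members called are close to that background. Ehf stood at 0.110 and 0.209 CPM in DCC IFN-gamma, against 2.19 and 1.98 CPM in DCC control, a log2 fold change of -3.69 ± 0.32 (edgeR, adjusted p = 4.03e-05). With 1 library left out this ranged from -4.13 to -3.28. Elf3 was at least 7.63-fold lower (adjusted p = 0.00203) and remained called with any of the 4 libraries left out. Both genes were low in DCC control too. In the DCC control libraries Ehf exceeded 96.4% and 99.4% of the receptor genes per kb, and Elf3 exceeded 98.7% and 99.1%. Counts on those receptor genes moved the same way as Ehf and Elf3, with 2% and 1.17% of them detected in DCC IFN-gamma and 47.7% and 11.9% in DCC control. The part of this in the 2 calls was not tested. Tfap2b (adjusted p = 0.0531) and Elf5 (0.111) had no count after treatment and were not called, while DESeq2 called them (0.00673 and 0.0326). Tfap2a changed by 0.35 ± 0.21 (adjusted p = 0.266) and Gata3 by -0.25 ± 0.30 (adjusted p = 0.565). In the same libraries the summed level of 15 macrophage and monocyte markers was 1110 to 1510 CPM in DCC IFN-gamma and 129 to 130 CPM in DCC control, and its part in these values was not tested. No marker of that list was without a count over both libraries in either group.

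**Figure D4:**
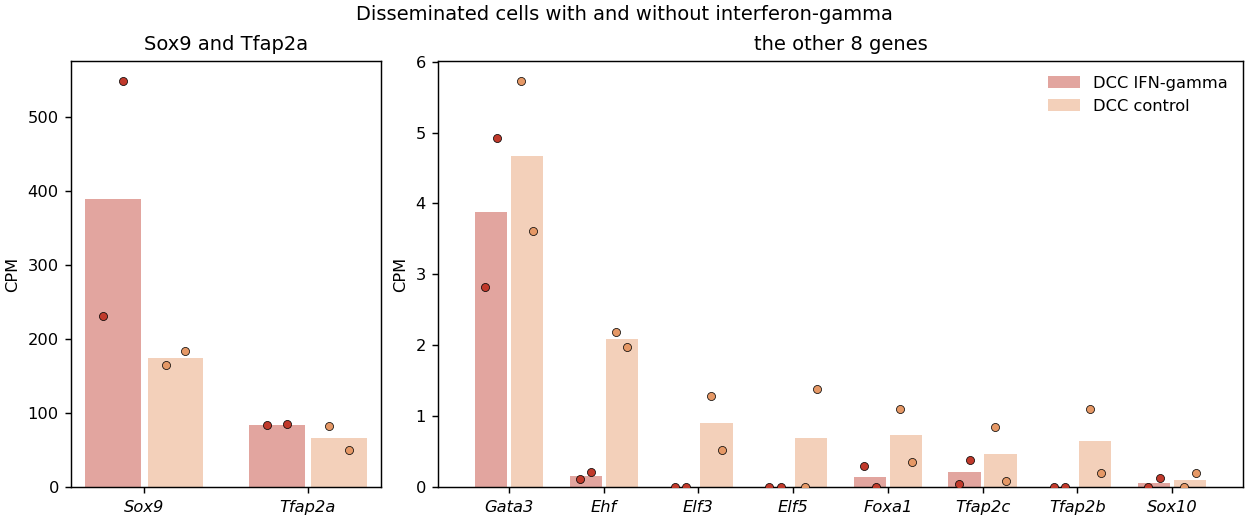
CPM of the 10 genes in the disseminated cells, with interferon-gamma left of the control, as points for single libraries and bars for their mean, on linear axes with different ranges. Sox9 and Tfap2a stand at 49.7 to 548 CPM, and the other 8 genes at 0 to 5.72 CPM. Ehf, Elf3, Tfap2b and Foxa1 are lower in both treated libraries than in both controls, and of these only Ehf and Elf3 were called.

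Other transcription factors of the mammary epithelium, a list of 30 genes, showed a mixed picture. In DCC control 13 were lower and 6 higher than in the early lesion, where 18.7% of all genes tested were lower and 19.1% higher. The median log2 fold change was -0.62 over the list and 0.23 over all genes. Foxi1, a forkhead factor, had 0.304 and 0.396 CPM in DCC control, against 348 and 332 CPM in the early lesion (-9.87 ± 0.23, adjusted p = 1.01e-08). Id4, an inhibitor of helix-loop-helix factors, had 1.16 and 0.752 CPM, against 85.2 and 81.8 CPM (-6.49 ± 0.26, adjusted p = 4.67e-08). On the higher side was Trp63, a master factor of basal epithelium, with 63.6 and 80.0 CPM in DCC control, against 0.413 and 2.01 CPM in the early lesion (5.96 ± 1.06, adjusted p = 0.00483). Against TUBO, 15 of the 30 were lower and 6 higher in DCC control (median -1.42, against 0.37 over all genes, of which 19.9% were lower and 22.1% higher). Klf4, a zinc-finger factor of barrier epithelia, was among the higher here, with 65.8 and 80.8 CPM in DCC control, against 0.276 and 0.572 CPM in TUBO. DCC IFN-gamma had 16 lower and 6 higher members of this list against the early lesion. The median was -0.87 with bounds, against -0.18 without bounds over all genes, of which 19.2% were lower and 22.7% higher. Against TUBO 16 were likewise lower and 6 higher (median -1.0, against 0 over all genes, of which 19.6% were lower and 24.4% higher). After interferon-gamma 9 of the 30 were lower and 5 higher than in DCC control, where 8.83% of all genes were lower and 12.6% higher (medians -0.54 and -0.2). Among the higher were Klf4, with 436 and 369 CPM in DCC IFN-gamma, against 65.8 and 80.8 CPM in DCC control (2.46 ± 0.25, adjusted p = 0.000129), and Klf5, a related factor, with 148 and 161 CPM, against 40.4 and 22.8 CPM (2.29 ± 0.24, adjusted p = 0.000182). Among the lower, Trp63 stood at 2.82 and 10.6 CPM in DCC IFN-gamma, against 63.6 and 80.0 CPM in DCC control (-3.43 ± 0.90, adjusted p = 0.0419 in edgeR). Hey1, a Notch target, stood at 0.586 and 0.918 CPM, against 6.27 and 4.71 CPM (-2.86 ± 0.25, adjusted p = 3.89e-05). TUBO had 5 higher and 5 lower members of the list against the early lesion (medians -0.17 and -0.27 over all genes, of which 11.4% were higher and 12.7% lower), and Hey1 was higher there, with 289 and 295 CPM in TUBO, against 102 and 102 CPM in the early lesion.

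For each member the genes of most similar pattern were sought by Pearson correlation of log2(CPM + 1) over the 8 libraries, among 12199 genes. The libraries fall into 4 groups, so these values describe shared group levels and carry no test. Closest to Sox10 was Epcam (r = 0.99991), with 1030 and 1090 CPM in TUBO and 836 and 794 CPM in the early lesion. Tfap2c came closest to Mal2 (r = 0.99929), Elf5 to Sh2d4a (r = 0.9989), Gata3 to Tgfb3 (r = 0.99856) and Ehf to the chloride channel gene Ano1 (r = 0.99981). The nearest gene to Tfap2b was Fam174b (r = 0.99919), with no count in DCC IFN-gamma or TUBO and 47.0 and 45.9 CPM in the early lesion. For Elf3 it was Cytip (r = 0.99821), for Tfap2a Usp53 (r = 0.99405), for Foxa1 Abcb9 (r = 0.98844) and for Sox9 Sec24d, a COPII coat gene (r = 0.98581).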

How the data were processed

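Per the labels, the 8 RNA libraries were prepared with a Nugen Ovation kit. Raw read counts by gene symbol, for all libraries in 1 table, were deposited by the authors. Per the submitters' processing notes, TopHat, HTSeq 0.6.1 and mm10 were used. Annotation, strand setting and filters are not given in the sources used here. Library sizes and tests leave out 5 closing lines of reads assigned to no gene (35.2% to 63.7% of all reads).

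Groups were compared by quasi-likelihood F tests in edgeR 4.0.16 (R 4.3.3, TMM, robust) in 1 model of 4 group means, with 4 residual degrees of freedom, over 17069 genes that passed filterByExpr (minimum count 10). A call means a p under 0.05 after Benjamini-Hochberg adjustment over all genes, in each of 6 comparisons. Each SE was taken as the absolute log2 fold change over the root of F. A fold against a group without counts is a bound from 3 counts per library. Exon lengths, coordinates and neighbours come from GENCODE M21 (GRCm38), in which 21832 symbols of the table occur once.

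Alternatives were RLE factors, no filter, a stricter filter, a replicate block, DESeq2 1.42.0, fits of 2 groups, and each library left out. Fits without both DCC control replicate 1 and early lesion replicate 2, and a crossed block, were chosen after seeing the data. The members and lists were chosen with earlier results of these data known. The text names all members, up to 4 called genes per other list with the largest changes and at least 5 CPM in the higher group, protein-coding neighbours of members and the genes most similar in pattern. Epcam, Krt5, Krt8, Krt14, Krt18, Cldn3, Lcn2, Spint1, Prlr, Alpl, Mylk, Dsg3, S100b, Mbp, Klf5, Prom1 and Cytip were named beside these after their values were seen.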

Additional observations from a re-analysis of the deposited data

How the results depend on the processing

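Of 653 log2 fold changes of members under the alternatives, 599 kept their direction and their side of the threshold, 24 became called, 14 lost their call, 15 changed sign and 1 became 0. None of the last 16 was called in either setting. The value of 0 is that of Elf5 in DCC IFN-gamma against DCC control without DCC control replicate 2, where neither group has a count. In DCC control against the early lesion 8 members were called under every alternative run. Over all genes, leaving out 1 library gave 2020 to 4128 called genes in DCC IFN-gamma against DCC control (3656 in all libraries) and 2391 to 3118 in TUBO against the early lesion (4117). Without both DCC control replicate 1 and early lesion replicate 2 there were 1654 called genes in DCC IFN-gamma against DCC control, 4112 in DCC control against the early lesion (6441) and 1944 in TUBO against the early lesion, where 2 members were called. These fits have fewer samples. In DCC IFN-gamma against DCC control, 4674 genes and 5 members were called with no filter. The stricter filter gave 3910 genes and 4 members, and DESeq2 4641 genes and 5 members, each over its own set of genes. In TUBO against the early lesion 2 to 4 were called with 1 library left out. The cause of these differences was not tested.

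Sign changes with 1 library left out touched values near 0 or few counts. The ranges in DCC IFN-gamma against DCC control were -8.20 to 0 for Elf5, -0.65 to 0.11 for Gata3, -4.62 to 3.69 for Sox10 and -3.21 to 1.26 for Tfap2c. For Foxa1 in DCC control against the early lesion the range was -0.70 to 0.90. In TUBO against the early lesion it was -0.026 to 0.19 for Sox9 and -0.17 to 0.10 for Tfap2a. With both libraries left out, Gata3 was at 0.096, Tfap2c at 1.26, Foxa1 at -0.59 and Tfap2a at -0.024. Tfap2a was at -0.0093 with RLE factors and -0.0093 in DESeq2.

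Replicate numbers were shared across groups. The correlation of same-numbered deviations was -0.296 to 0.146, and the labels state no shared source. Whether same-numbered libraries were paired is therefore not known. With the replicate block, 3481 genes and 2 members were called in DCC IFN-gamma against DCC control. For DCC control there were 6316 genes and 8 members against the early lesion, and 6843 genes and 8 members against TUBO. For DCC IFN-gamma there were 6921 genes and 9 members against the early lesion, and 7270 genes and 8 members against TUBO. TUBO against the early lesion gave 4013 genes and 4 members. The counts of members were those found without the block. In a fit of DCC control and the early lesion alone, a crossed block gave 7172 called genes, against 7389 without a block. A floor of 0.0953 to 0.183 CPM limits what can be said of members near 0 in the DCC libraries.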

Other observations

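Of 20 luminal markers 3 were called higher and 1 lower in TUBO than in the early lesion, a share close to the 24.1% of all genes called there. The lower was Prom1, a surface marker of luminal cells, with 0.241 and 0 CPM in TUBO, against 76.7 and 71.3 CPM in the early lesion. The higher ones were the tight junction gene Cldn3 (0.52 ± 0.15, adjusted p = 0.0333) and the keratins Krt18 and Krt8, by log2 fold changes of 1.67 ± 0.27 and 1.35 ± 0.17 (adjusted p = 0.00175 and 0.000327 in edgeR).

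Cytip, a gene of the leukocyte list, had 84.3 and 84.6 CPM in TUBO, against 10.2 and 12.7 CPM in the early lesion, while 7 of the 9 genes of that list averaged under 1 CPM in TUBO. It was named after its values were seen, as the gene closest to Elf3 in pattern.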
